A study of Homo sapiens with 9 samples.

Results

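The snoRNA host genes described here are 39 of the 56541 genes in the deposited table. They were chosen by name: the 29 genes whose symbol is SNHG followed by a number, 4 other noncoding hosts (GAS5, DANCR, ZFAS1 and EPB41L4A-AS1), and 6 protein-coding hosts (RACK1, NOP56, NCL, DKC1, TAF1D and GNL3). EIF4A2, another host, was left out by the rule. The rule uses symbols and no measured value. The hosts and the lists compared with them below were nonetheless chosen with earlier results of these data known.

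All libraries came from MOLM-13, a human acute myeloid leukaemia line, after 4 days of doxycycline at 200 ng/µL as labelled. Total RNA was sequenced from cells with a control hairpin (genotype shCONTROL) and from cells with a hairpin against BCLAF1 (genotype shBCLAF1). BCLAF1 is a nuclear RNA-binding protein. The third group, RIP, was RNA from an RNA immunoprecipitation of BCLAF1 in shCONTROL cells. Each group had 3 libraries, with 2000000 cells collected per RNA-seq sample and 15000000 per RIP sample. Nothing in the labels says that replicates were separate cultures, so the p-values measure the spread between these libraries, which may be technical. The labels name no mock precipitation and do not give the hairpin sequences or clones.

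Small nucleolar RNAs (snoRNAs) guide chemical modification of ribosomal and spliceosomal RNA. Box C/D snoRNAs direct methylation with the enzyme fibrillarin, and box H/ACA snoRNAs direct pseudouridylation with dyskerin. Most human snoRNAs have no promoter of their own: they are cut from the introns of a host transcript after splicing. Some hosts encode ribosomal or nucleolar proteins, while the SNHG genes, GAS5 and their like leave a spliced noncoding RNA, which is often degraded by nonsense-mediated decay. Many hosts share with ribosomal protein genes a start site in a run of pyrimidines, the 5′ TOP element, which ties translation of an mRNA to growth signals.

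RefSeq places 174 genes named SNORD, SNORA or SCARNA inside the intervals of 37 of the 39 hosts (GRCh38.p14). Of these, 136 are of the box C/D class, 34 of the box H/ACA class and 4 named SCARNA. RefSeq snoRNA genes under LOC names, which lie in SNHG1, SNHG14, SNHG17, SNHG28 and SNHG33, were not counted. SNHG14 alone contains 83 of the 174. GAS5 contains 11 of them, SNHG1 and TAF1D 8 each, and NOP56 5.

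Total estimated counts ran from 25819144 to 36635268 per library. Values in CPM (counts scaled to a common library size of 1000000) below are scaled with TMM over all 9 libraries. BCLAF1 itself stood at 322 ± 8.41 CPM with the control hairpin and fell to 113 ± 12.5 after knock-down (SD, n = 3 each; adjusted p 2.06e-04). Of 11 myeloid markers, 10 were above 1 CPM in shCONTROL and CD14 was listed at 0. Of 13 genes listed as markers of other cell types, HBB, ALB, EPCAM, CD3E and MS4A1 were at 0. PECAM1, also on that list, was above 1 CPM in shCONTROL. It was higher after knock-down (0.35 on the log2 scale, adjusted p 0.0147) and in the RIP (1.42, adjusted p 0.00206). HBA1, a globin, was listed at 0 in all RNA-seq libraries and at 2.59, 1.24 and 2.67 CPM in the RIP. The 13 markers of that list summed to between 184.7 and 196.3 CPM per shCONTROL library, between 216.6 and 257.9 per shBCLAF1 library and between 424.7 and 666.6 per RIP library, and the 11 myeloid markers to 1587 to 1611, 1604 to 1659 and 2073 to 2246. Only 2 of the 13 were above 1 CPM in shCONTROL, so the shCONTROL sums of that list rest almost wholly on those 2. The part of these shifts in the results was not tested.

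The share of all counts that the hosts took was 0.720% to 0.728% per shCONTROL library. It was 0.515% to 0.520% after knock-down and 0.858% to 0.967% in the precipitate. A total of 33 hosts were above 0 in all 9 libraries. SNHG18, SNHG27 and SNHG28 were listed at 0 in all 9, and SNHG31 had counts in 1 shBCLAF1 and 1 RIP library alone. The other 35 passed the filter on low counts in both fits, and all of them had counts in shCONTROL.

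To show the start sites that the hosts do or do not share with ribosomal protein genes, 10 hosts are printed from 20 bases before to 20 bases after the RefSeq start (GRCh38.p14). The starts are those of the RefSeq promoter table, and for SNHG12 and ZFAS1 they lie 1110 and 464 bases inside the RefSeq gene interval. Capitals mark the longest run of C or T from 10 bases before the start to 20 after it.
RACK1 (chr5:181243887-181243926, minus strand): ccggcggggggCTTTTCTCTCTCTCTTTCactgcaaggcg
SNHG4 (chr5:139274081-139274120, plus strand): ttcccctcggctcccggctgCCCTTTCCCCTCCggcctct
TAF1D (chr11:93741476-93741515, minus strand): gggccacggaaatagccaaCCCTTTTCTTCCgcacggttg
SNHG12 (chr1:28581854-28581893, minus strand): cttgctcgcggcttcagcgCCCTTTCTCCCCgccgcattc
SNHG26 (chr7:22854220-22854259, plus strand): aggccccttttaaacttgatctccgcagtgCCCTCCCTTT
SNHG16 (chr17:76557744-76557783, plus strand): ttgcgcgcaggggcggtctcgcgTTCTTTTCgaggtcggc
SNHG32 (chr6:31834896-31834935, plus strand): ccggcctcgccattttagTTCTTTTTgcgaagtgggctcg
SNHG1 (chr11:62855866-62855905, minus strand): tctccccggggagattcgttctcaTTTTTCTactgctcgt
ZFAS1 (chr20:49278622-49278661, plus strand): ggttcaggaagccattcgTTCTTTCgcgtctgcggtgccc
NOP56 (chr20:2652612-2652651, plus strand): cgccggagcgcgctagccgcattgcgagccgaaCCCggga

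RACK1, which encodes a scaffold protein of the small ribosomal subunit, had an unbroken run of 18 pyrimidines, while the longest run at the NOP56 start was 3. RefSeq gave 37 starts for 35 of the hosts. A run of at least 8 pyrimidines was present at 8 of those 37 starts (21.6%), at 73.1% of the starts of cytoplasmic ribosomal protein genes and at 12.7% of all starts. The motif CACGTG, which is the same on both strands, lay within the 300 bases around 3 of the 37 host starts (8.11%) and around 7.26% of all starts. These are matches of letters and do not show a site in use.

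After knock-down the hosts were mostly lower. Of the 35 tested, 24 fell at an adjusted p under 0.05 and 1, SNHG9, rose, where 16.9% of all 16961 genes tested fell and 15.5% rose (32.3% in either direction). All 6 protein-coding hosts fell, and so did 18 of 29 noncoding ones. The median log2 of the fold change (log2FC) over the 35 was -0.38, against 0.02 over all genes tested. The 24 hosts had a median of -0.43, and 16 of them lay between -0.50 and 0, so most changes were small beside those of SNHG16 and SNHG14. In shBCLAF1 25 of the 35 lay below every shCONTROL library, which held for 25.1% of all genes, and 1 lay above, against 24.2%.

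The count depended on the fit. In a fit of all 9 libraries, 9 hosts fell: SNHG16, SNHG14, EPB41L4A-AS1, SNHG4, RACK1, SNHG32, SNHG6, SNHG7 and DKC1. That fit had 1318 of all 17419 genes tested lower. With 1 library left out, 22 to 24 hosts fell, beside 2171 to 2730 of the 17290 to 17394 genes tested.

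**Figure D1:**
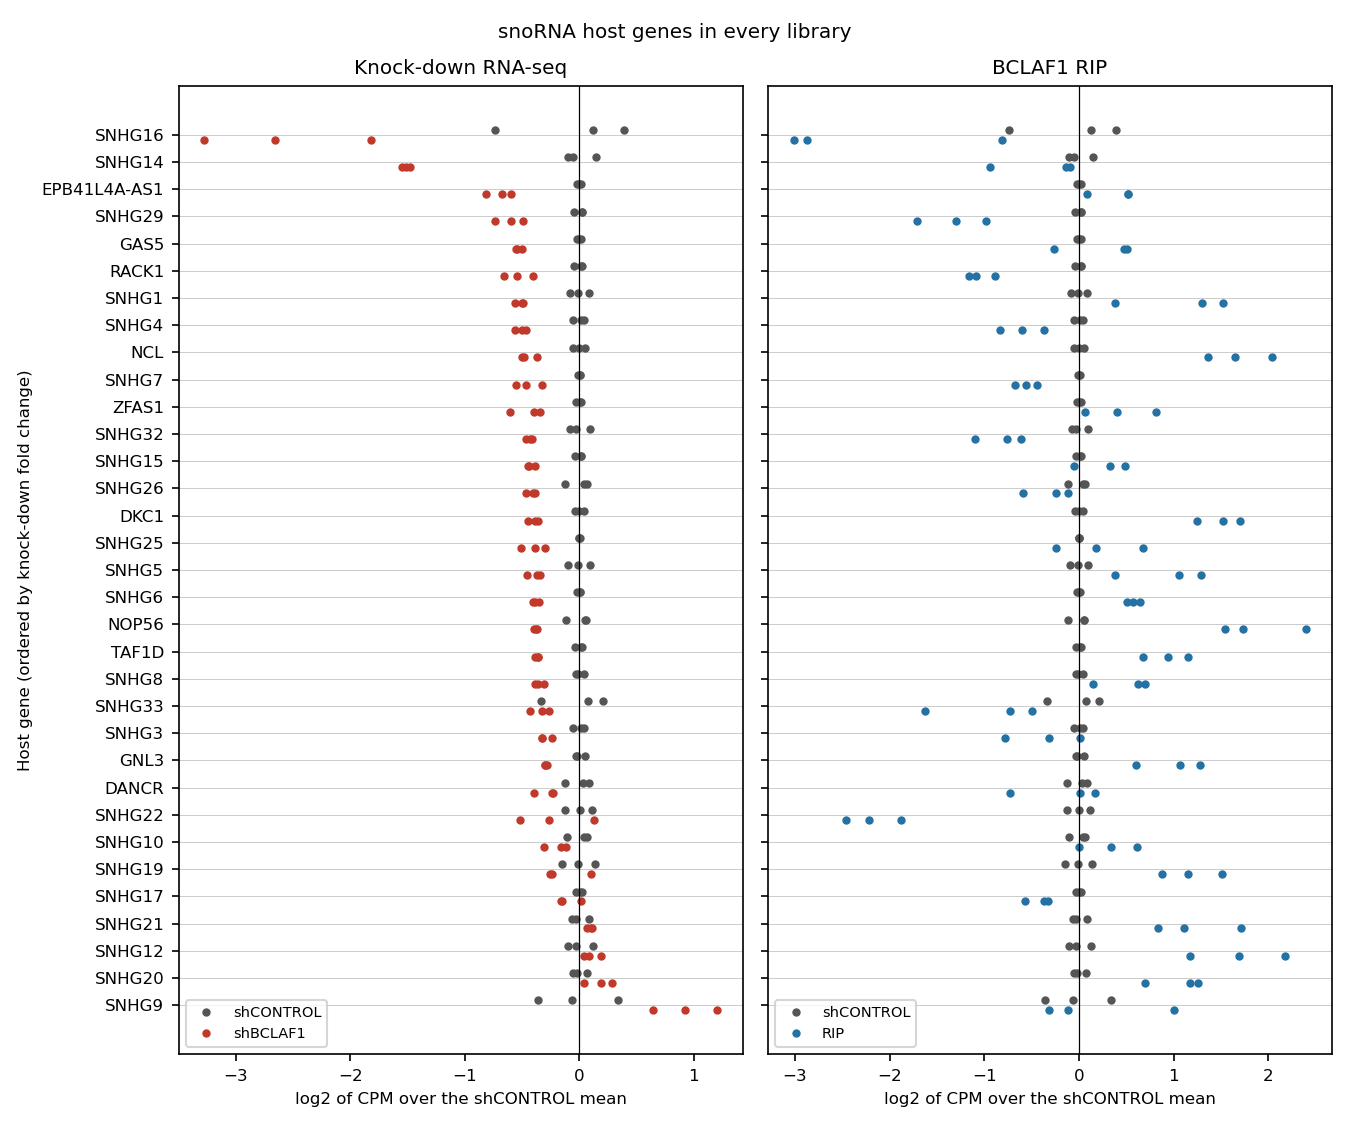
Each row is 1 of the 33 hosts above 0 in all libraries, and each point is 1 library, drawn as log2 of its CPM over the shCONTROL mean. On the left nearly all shBCLAF1 points of the upper rows lie below 0 in a narrow band, with SNHG16 and SNHG14 far below it; on the right the RIP points spread to both sides.

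SNHG16 showed the largest fall. This gene on chromosome 17 (76557764 to 76565348) carries SNORD1A, SNORD1B and SNORD1C. It measured 196, 162 and 89.7 CPM in shCONTROL and 15.4, 42.2 and 23.6 in shBCLAF1, or 18.1% of the control on average. The groups did not overlap, although the spread within each was wide. The log2FC was -2.46 (SE 0.45, adjusted p 0.00852).

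SNHG14 is a transcript of 595855 bases on chromosome 15 (24823608 to 25419462, plus strand). It runs from the imprinted SNRPN region through the SNORD116 and SNORD115 clusters and lies antisense to UBE3A. It measured 491, 583 and 508 CPM in shCONTROL and 180, 189 and 185 in shBCLAF1. The shBCLAF1 libraries were close together and all lay below the control (35.0% of it). The log2FC was -1.51 (SE 0.07, adjusted p 1.41e-04).

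Of the genes within or across SNHG14, SNRPN and UBE3A had values near 0 after knock-down. SNRPN, which encodes a spliceosomal Sm protein, had a log2FC of 0.01 (adjusted p 0.923), and UBE3A, a ubiquitin ligase, 0.05 (adjusted p 0.468). SNURF, which is protein-coding and low, had -0.43 (adjusted p 0.370), and the pseudogene RPL5P1 fell (-0.56, adjusted p 0.0429). As a share of SNHG14 counts, UBE3A stood at 31.1% ± 1.42 with the control hairpin and 91.5% ± 3.49 after knock-down (SD, n = 3 each). SNRPN counts were 16.0% ± 2.31 and 45.7% ± 4.37 of them. The sources used here do not say whether counting used the strand, so reads of SNHG14 and UBE3A cannot be told apart with certainty.

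Of the noncoding hosts of many box C/D snoRNAs, GAS5 and SNHG1 fell by about the same size. GAS5, named for its rise in growth-arrested cells, measured 327, 323 and 318 CPM in shCONTROL and 228, 220 and 221 in shBCLAF1. Both groups were tight and far apart (log2FC -0.53, SE 0.03, adjusted p 2.35e-04). SNHG1 measured 160, 142 and 150 CPM in shCONTROL and 107, 106 and 102 in shBCLAF1, again without overlap (log2FC -0.51, SE 0.05, adjusted p 0.00100).

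ZFAS1, which holds SNORD12, SNORD12B and SNORD12C, measured 146, 145 and 142 CPM in shCONTROL and 114, 110 and 94.7 in shBCLAF1. All 3 shBCLAF1 libraries were lower (log2FC -0.44, SE 0.07, adjusted p 0.00591). SNHG29, formerly LRRC75A-AS1 and the most counted of the noncoding hosts, measured 1176, 1177 and 1126 CPM in shCONTROL and 827, 768 and 694 in shBCLAF1. Its groups did not overlap (log2FC -0.60, SE 0.07, adjusted p 0.00150). LRRC75A, which overlaps SNHG29, had a count that was 2.73% ± 0.169 of that of SNHG29 with the control hairpin. The share was 2.79% ± 0.506 after knock-down and 2.84% ± 0.664 in the precipitate (SD, n = 3 each), so the origin of the smaller count is uncertain. SNHG32, formerly C6orf48 and host of SNORD48 and SNORD52, measured 172, 195 and 178 CPM in shCONTROL and 136, 135 and 132 in shBCLAF1, without overlap (log2FC -0.43, SE 0.05, adjusted p 0.00205).

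Hosts of box H/ACA snoRNAs fell as well. EPB41L4A-AS1, host of SNORA13, measured 34.4, 34.0 and 34.9 CPM in shCONTROL and 19.6, 21.5 and 22.7 in shBCLAF1. Its log2FC of -0.69 (SE 0.07, adjusted p 9.92e-04) was the third lowest of the hosts. SNHG4, which holds SNORA74A and overlaps the MATR3 gene, measured 101, 94.6 and 99.4 CPM in shCONTROL and 71.5, 69.7 and 66.6 in shBCLAF1 (log2FC -0.50, SE 0.05, adjusted p 7.36e-04). SNHG7, host of SNORA17A and SNORA17B, measured 96.3, 96.1 and 94.9 CPM in shCONTROL and 69.2, 65.4 and 76.3 in shBCLAF1 (log2FC -0.44, SE 0.06, adjusted p 0.00288). None of these overlapped between the groups. DIPK1B, whose gene overlaps SNHG7, also fell (-0.91, adjusted p 0.0108). DANCR, host of SNORA26, measured 92.4, 79.4 and 88.6 CPM in shCONTROL and 74.2, 73.7 and 65.9 in shBCLAF1, with a gap of only a few CPM. Its call (log2FC -0.28, SE 0.08, adjusted p 0.0345) did not hold when shCONTROL replicate 1 or 3 or any shBCLAF1 replicate was left out (adjusted p 0.0609 to 0.110), with replicate numbers as a block (0.0678) and in the fit of all 9 libraries (0.439). Over its alternatives the adjusted p ran from 0.00534 to 0.439.

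Another 7 noncoding hosts fell, namely SNHG3, SNHG5, SNHG6, SNHG8, SNHG15, SNHG25 and SNHG26. Their log2FCs ran from -0.42 to -0.29, with adjusted p of at most 0.0282. That largest p belonged to SNHG25, whose call was lost under DESeq2 (adjusted p 0.0515), with replicate numbers as a block (0.0629), in the fit of all 9 libraries (0.297) and without shBCLAF1 replicate 2 or any shCONTROL replicate (0.0684 to 0.0827). Its alternatives ran from 0.0254 to 0.297.

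Of the protein-coding hosts, RACK1 had the largest fall. It measured 1307, 1367 and 1362 CPM in shCONTROL and 1014, 923 and 854 in shBCLAF1 (log2FC -0.53, SE 0.07, adjusted p 0.00229). NCL encodes nucleolin, an abundant nucleolar RNA-binding protein. It measured 1075, 1038 and 1114 CPM in shCONTROL and 761, 770 and 833 in shBCLAF1 (log2FC -0.44, SE 0.05, adjusted p 0.00141). DKC1 encodes dyskerin, the pseudouridine synthase of box H/ACA particles, and holds box H/ACA snoRNAs itself. It measured 146, 138 and 142 CPM in shCONTROL and 104, 110 and 108 in shBCLAF1 (log2FC -0.40, SE 0.04, adjusted p 0.00104).

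NOP56 encodes a core protein of box C/D particles. It measured 313, 280 and 315 CPM in shCONTROL and 230, 233 and 235 in shBCLAF1 (log2FC -0.38, SE 0.05, adjusted p 0.00322). TAF1D, a subunit of the RNA polymerase I selectivity factor, measured 252, 251 and 242 CPM in shCONTROL and 193, 194 and 190 in shBCLAF1 (log2FC -0.37, SE 0.03, adjusted p 6.45e-04). GNL3 encodes nucleostemin, a nucleolar GTPase. It measured 153, 145 and 145 CPM in shCONTROL and 120, 120 and 122 in shBCLAF1 (log2FC -0.29, SE 0.04, adjusted p 0.00204). For all 6 protein-coding hosts every shBCLAF1 library lay below every shCONTROL library.

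**Figure D2:**
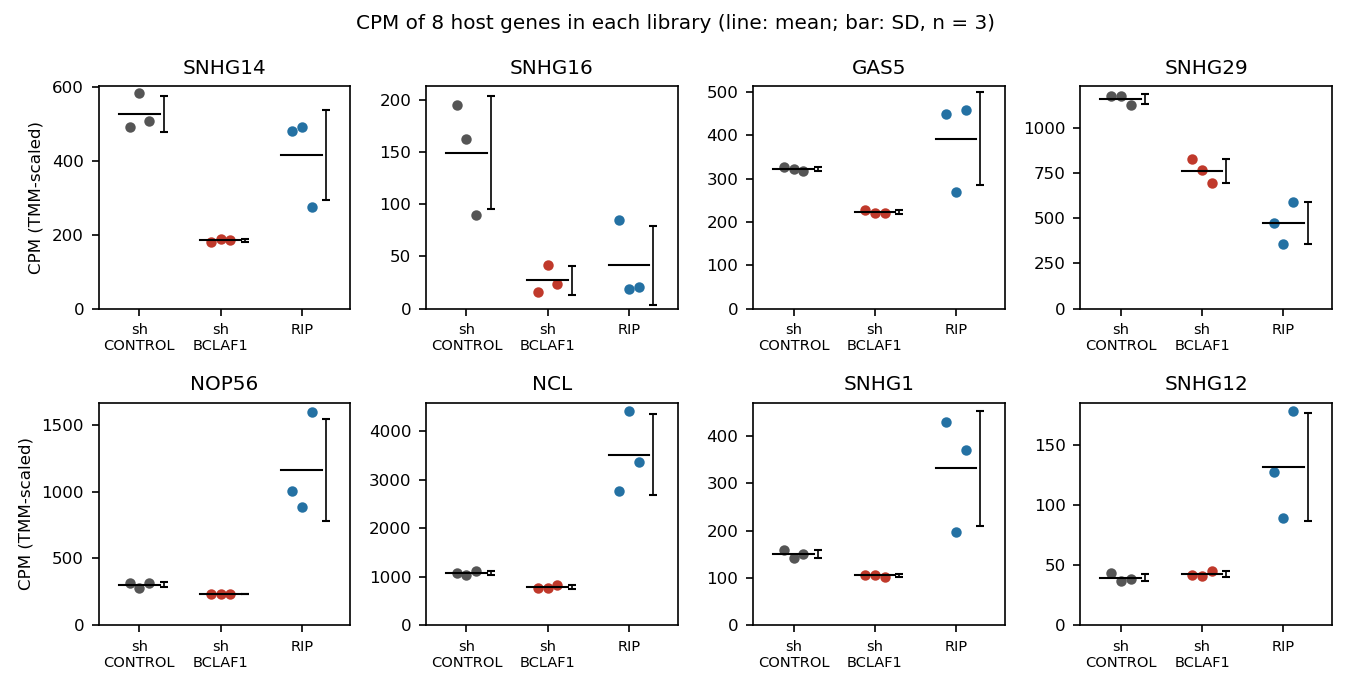
Points are libraries, lines group means and bars SD (n = 3), in TMM-scaled CPM from 0, for 8 hosts. SNHG14 and SNHG16 were lowest in shBCLAF1, at 185 and 27.1 CPM on average, while NOP56, NCL and SNHG12 reached 1164, 3514 and 132 CPM in the RIP.

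The hosts that did not pass after knock-down included 4 that hold a single or a few snoRNAs and measured under 45 CPM. SNHG12, which carries SNORA16A, SNORA44, SNORA61 and SNORD99, measured 42.9, 36.7 and 38.6 CPM in shCONTROL and 41.7, 40.5 and 44.9 in shBCLAF1 (log2FC 0.11, adjusted p 0.320). SNHG19, host of SNORD60, measured 12.2, 9.95 and 10.98 CPM and 9.23, 9.38 and 11.8 (-0.12, adjusted p 0.566). The groups overlapped for both. SNHG20 and SNHG21 are hosts of the Cajal body RNAs SCARNA16 and SCARNA15. SNHG20 measured 16.2, 15.8 and 17.2 CPM in shCONTROL and 16.9, 18.7 and 20.02 in shBCLAF1 (0.18, adjusted p 0.173). SNHG21 measured 10.4, 11.3 and 10.2 CPM and 11.5, 11.4 and 11.1 (0.10, adjusted p 0.398).

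SNHG22 was low, at 4.36, 5.15 and 4.78 CPM in shCONTROL and 3.97, 3.33 and 5.21 in shBCLAF1, and its groups overlapped (log2FC -0.19, adjusted p 0.501). SNHG10 and SNHG17 had log2FCs of -0.19 and -0.09 (adjusted p 0.141 and 0.282), and SNHG33 -0.33 (adjusted p 0.185). SNHG11 and SNHG30 were at 0 in 1 or more libraries, beside 22 to 233 counts in the others of the same fit, and had standard errors of 1.19 and 1.24. SNHG9, host of SNORA78, measured 1.30, 1.07 and 1.72 CPM in shCONTROL and 2.13, 3.15 and 2.59 in shBCLAF1 (log2FC 0.94, SE 0.24, adjusted p 0.0293). This rise rests on 36 to 119 counts per library. It did not hold when shCONTROL replicate 1 or 2 or shBCLAF1 replicate 2 or 3 was left out (adjusted p 0.0668 to 0.0920), with replicate numbers as a block (0.0713) or in the fit of all 9 libraries (0.163), and its alternatives ran from 0.0226 to 0.163.

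In the RIP the hosts went both ways. With an adjusted p under 0.05 and a log2FC of at least 1 in size, 9 of 35 were enriched over shCONTROL RNA-seq (11.1% of all 16727 genes tested) and 3 were depleted (13.6%). Without the minimum, 13 were higher and 7 lower, against 24.6% and 24.7% of all genes. The median over the 35 was 0.28, and -0.05 over all genes. All 3 RIP libraries lay above shCONTROL for 15 hosts and below for 9, against 31.8% and 35.2% of all genes. The reference is total RNA and not a mock precipitation, so binding and background of the precipitation cannot be told apart.

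RIP replicate 2 was the lowest of the 3 RIP libraries for 28 of the 33 hosts above 0 everywhere (84.8%), and for 38.2% of the 14069 such genes in the RIP fit. Without it 11 hosts were enriched (31.4%) and 2 depleted (5.71%), against 11.01% and 13.98% of all genes. Without RIP replicate 1, 5 were enriched and 5 depleted (14.3% each), against 11.63% and 16.98% of all genes, so the share of enriched hosts was then near that of all genes. The part of this library difference in the results was not tested.

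The enriched hosts included 4 of the 6 protein-coding ones. NOP56 measured 1008, 883 and 1600 CPM in the RIP, or 384% of shCONTROL. Its log2FC of 1.93 (SE 0.24, adjusted p 0.00139) was the highest of the hosts, with replicate 3 above the rest. NCL measured 2767, 4406 and 3369 CPM (log2FC 1.70, SE 0.20, adjusted p 0.00113), and here replicate 2 was the highest. DKC1 measured 338, 408 and 463 CPM (log2FC 1.498, SE 0.13, adjusted p 5.12e-04). For all of these the RIP libraries lay far above shCONTROL. GNL3 measured 309, 225 and 358 CPM (log2FC 1.00, SE 0.17, adjusted p 0.00431), at the edge of the minimum. It fell under 1 without shCONTROL replicate 2 or 3 or RIP replicate 1 or 3 (0.85 to 0.99), with replicate numbers as a block (0.98) and with total counts (0.89).

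TAF1D measured 552, 397 and 475 CPM in the RIP, higher than shCONTROL but just under the minimum (log2FC 0.93, SE 0.13, adjusted p 0.00224). It was over the minimum with both RNA-seq groups averaged as the reference (1.12) and without RIP replicate 2 (1.04), but with no other library left out. RACK1 was the exception among the protein-coding hosts. It measured 636, 601 and 728 CPM in the RIP, all below shCONTROL (log2FC -1.05, SE 0.11, adjusted p 8.21e-04), and was under the minimum without RIP replicate 2 (-0.99) and with both RNA-seq groups averaged as the reference (-0.77).

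Of the noncoding hosts, 5 were enriched. SNHG12 measured 128, 89.0 and 178 CPM (log2FC 1.73, SE 0.25, adjusted p 0.00235), and every RIP library was above every shCONTROL library. SNHG21 measured 34.7, 19.0 and 22.9 CPM (1.26, SE 0.23, adjusted p 0.00556), and SNHG19 24.5, 20.2 and 31.4 CPM (1.19, SE 0.19, adjusted p 0.00304). SNHG21 was under the minimum without RIP replicate 1 (0.98). SNHG20 measured 39.1, 26.5 and 36.9 CPM (1.05, SE 0.16, adjusted p 0.00281), and was under the minimum with total counts (0.94), with both RNA-seq groups averaged as the reference (0.97) and without RIP replicate 1 (0.95) or 3 (0.998). All 4 of these hosts are ones that did not pass after knock-down.

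SNHG1 measured 431, 196 and 370 CPM in the RIP (log2FC 1.13, SE 0.28, adjusted p 0.0175). Replicate 2 was far lower than the others but still above shCONTROL. It did not hold when shCONTROL replicate 1, 2 or 3 was left out (adjusted p 0.0536, 0.0664 and 0.0621) and, through the minimum, without RIP replicate 1 (0.91). Its alternatives ran from 1.96e-04 to 0.580. GAS5 measured 450, 269 and 459 CPM, with replicate 2 below shCONTROL and the others above it (0.28, SE 0.21, adjusted p 0.313). ZFAS1 measured 190, 151 and 254 CPM (0.45, adjusted p 0.0908), and EPB41L4A-AS1 49.1, 36.6 and 49.3 CPM (0.38, adjusted p 0.0525). Both lay above shCONTROL in all libraries and did not pass. DANCR measured 97.5, 52.5 and 87.7 CPM and overlapped shCONTROL (-0.14, adjusted p 0.634).

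The depleted noncoding hosts were SNHG22 and SNHG29. SNHG22 measured 1.29, 1.03 and 0.868 CPM in the RIP, from 25 to 33 counts a library, or 22.3% of shCONTROL (log2FC -2.17, SE 0.23, adjusted p 8.52e-04). SNHG29 measured 473, 355 and 588 CPM (log2FC -1.30, SE 0.19, adjusted p 0.00235). In both every RIP library was below every shCONTROL library. SNHG29 was at -0.99 with both RNA-seq groups averaged as the reference. SNHG32 measured 119, 85.1 and 108 CPM (-0.81, adjusted p 0.00366), SNHG4 76.2, 64.9 and 55.2 CPM (-0.60, adjusted p 0.0110) and SNHG7 65.0, 60.0 and 70.5 CPM (-0.56, adjusted p 0.00232). These 3 were lower in the RIP without reaching the minimum, as was SNHG17 (-0.42, adjusted p 0.00804).

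The hosts that were higher without reaching the minimum included SNHG5 (0.95, adjusted p 0.0152), SNHG6 (0.57, adjusted p 0.00156) and SNHG8 (0.50, adjusted p 0.0341). SNHG5 was called with both RNA-seq groups averaged as the reference (1.15) and without shCONTROL replicate 1 (1.00) or RIP replicate 2 (1.17). It was not called with any other library left out. SNHG3, SNHG9, SNHG10, SNHG11, SNHG15, SNHG25, SNHG26, SNHG30 and SNHG33 did not pass, with RIP log2FCs from -0.88 for SNHG33 to 0.33 for SNHG10.

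SNHG16 and SNHG14, the hosts that fell most after knock-down, were not called in the RIP. SNHG16 measured 84.9, 18.5 and 20.4 CPM, so replicate 1 stood apart from the other two. Its log2FC was -1.86 (SE 0.67, adjusted p 0.0622), and -2.94 without RIP replicate 1 (adjusted p 0.00417). It was also called under DESeq2 (adjusted p 0.00395), with replicate numbers as a block (0.0227) and in the fit of all 9 libraries (0.0434), and its alternatives ran from 0.00395 to 0.373. SNHG14 measured 481, 492 and 274 CPM and overlapped shCONTROL (-0.35, SE 0.24, adjusted p 0.278).

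Knock-down and RIP share the shCONTROL libraries, so their values are given side by side only. Over all genes tested in the RIP, 11.1% were enriched and 13.6% depleted. Of the 24 hosts that fell after knock-down, 5 were enriched in the RIP and 4 higher under the minimum. Another 2 were depleted and 3 lower under the minimum, and 10 did not pass. The enriched ones were NOP56, NCL, DKC1, SNHG1 and GNL3, with RIP values of 1.93, 1.70, 1.498, 1.13 and 1.00 beside knock-down values of -0.38, -0.44, -0.40, -0.51 and -0.29. The depleted ones were SNHG29 and RACK1, with -1.30 and -1.05 beside -0.60 and -0.53.

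Among the start sequences shown above, hosts with and without a long pyrimidine run fell. Of the 8 hosts with a run of at least 8 pyrimidines at the start, 7 were tested, and 6 of those 7 fell after knock-down; SNHG12 did not. Of 24 tested hosts with a shorter run, 15 fell, where 16.9% of all genes tested fell. Genes other than the hosts were not split by run. Medians were taken over starts, 7 with a long run and 26 without, so GNL3 and SNHG33 counted more than once. The median log2FCs were -0.43 and -0.33 after knock-down and -0.60 and 0.36 in the RIP. TAF1D and SNHG12, both with runs of 12, were among the higher hosts in the RIP. RefSeq starts need not be the starts used in these cells.

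The snoRNAs themselves were sparsely measured. Of the 174 counted inside the hosts, 84 had a row under a symbol with a single identifier. Of those, 54 were listed at 0 in all libraries, 17 were tested after knock-down and 19 in the RIP. After knock-down 3 of 17 fell (17.6%), a share near the 16.9% of all genes. These 3 were box H/ACA RNAs of SNHG3 and SNHG4. SNORA73A measured 80.1, 108 and 95.3 CPM in shCONTROL and 57.6, 65.2 and 69.4 in shBCLAF1 (log2FC -0.56, SE 0.13, adjusted p 0.0177). SNORA73B measured 166, 182 and 174 CPM and 129, 134 and 138 (-0.37, SE 0.05, adjusted p 0.00238). SNHG3, which holds both, measured 312, 293 and 306 CPM in shCONTROL and 243, 242 and 258 in shBCLAF1 (-0.29, SE 0.04, adjusted p 0.00368). RCC1, a chromatin-binding exchange factor whose gene overlaps SNHG3, had -0.55 (adjusted p 0.00232). SNORA74D in SNHG4 measured 4.28, 3.82 and 4.34 CPM and 2.02, 1.98 and 1.85 (-1.08, SE 0.12, adjusted p 0.00144), while SNHG4 had -0.50.

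In the RIP 4 of the 19 tested were depleted (21.1%, against 13.6% of all genes), all from SNHG3 and SNHG4. SNORD86 and SNORD48 were tested in the RIP and not after knock-down, so their place among the 19 rests on the RIP libraries. The share of 19 therefore depends in part on the groups compared. SNORA73A fell to 0.274, 0.141 and 0.347 CPM, or 0.269% of shCONTROL (log2FC -8.52, SE 0.27, adjusted p 1.42e-04). SNORA73B measured 34.7, 17.4 and 41.3 CPM (-2.49, SE 0.31, adjusted p 0.00139). Their host SNHG3 measured 306, 177 and 244 CPM in the RIP, with a log2FC of -0.34 (SE 0.19, adjusted p 0.204). SNORA74A and SNORA74D had RIP values of -3.60 and -3.46 (adjusted p 2.19e-04 and 2.90e-04), beside -0.60 for SNHG4.

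Of 66 snoRNAs tested in the RIP outside the hosts, 34 were depleted (51.5%, against 13.6% of all genes). Only 1 was enriched (1.52%, against 11.1%), and the median was -1.65.

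Over 18 pairs with counts in shCONTROL, the snoRNA had a lower RIP log2FC than its host in 15. The 7 box H/ACA RNAs ranged from -8.52 to 0.12 with a median of -2.49, and the 11 box C/D RNAs from -0.71 to 1.22 with a median of 0.24. The box C/D values rest on 4 to 94 counts per library. Some box H/ACA values were as thin: SNORA71D held 13, 0 and 0 counts in the RIP and SNORA51 10, 6 and 15. SNORA73A held 7, 4 and 10 counts in the RIP, but 2829, 3658 and 3425 in shCONTROL. SNORD12C in ZFAS1 was enriched, at 1.30, 0.859 and 1.20 CPM in shCONTROL and 2.27, 2.37 and 3.26 in the RIP (log2FC 1.22, SE 0.29, adjusted p 0.0154). SNORD86 in NOP56 was listed at 0 in all 6 RNA-seq libraries and held 34, 22 and 81 counts in the RIP. A listed 0 here can be a failed estimate and says nothing of how many reads there were, so no fold is given.

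**Figure D3:**
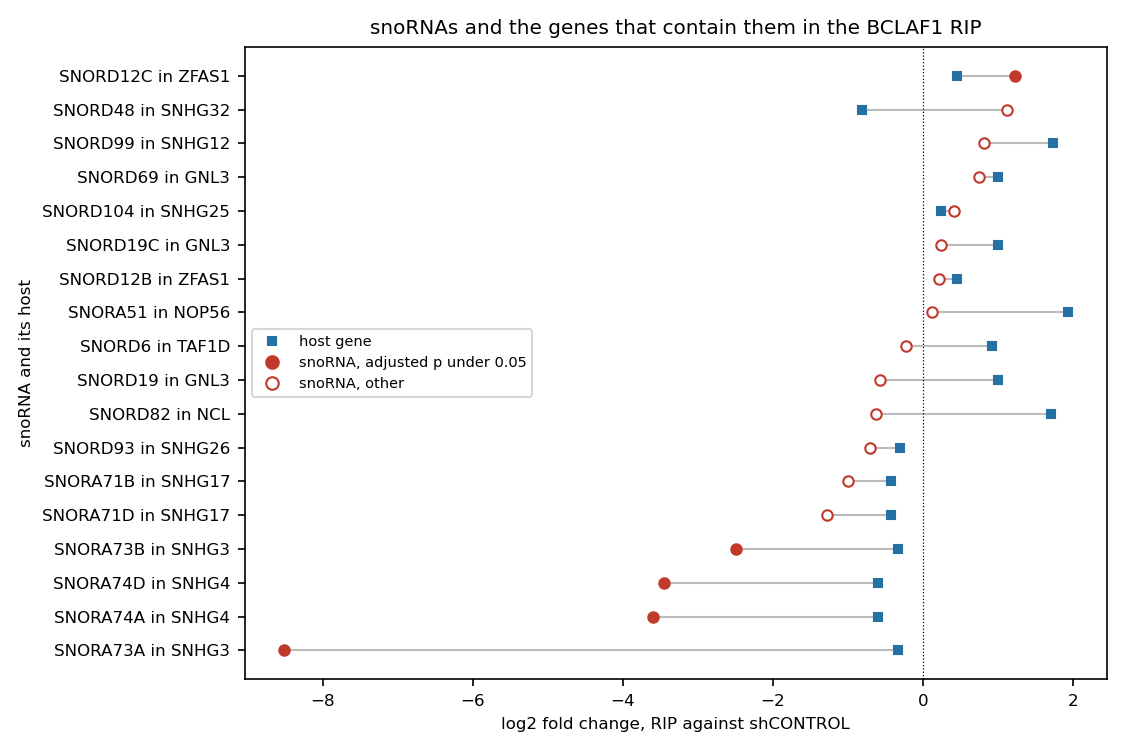
For 18 snoRNAs with counts in shCONTROL, circles give the RIP log2FC of the snoRNA and squares that of the host gene, with circles filled where the adjusted p was under 0.05. SNORA73A stands at -8.52 against -0.34 for SNHG3, whereas the SNORD values lie between -0.71 and 1.22.

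Some genes around the hosts in the snoRNA pathway also fell after knock-down, where 16.9% of all genes fell and 15.5% rose. All 4 core proteins of box C/D particles fell: fibrillarin (FBL, -0.42), NOP58 (-0.27), NOP56 and SNU13 (-0.62), a list that shares NOP56 with the hosts. Of the 4 box H/ACA core proteins, 2 fell, GAR1 (-0.51) and DKC1, while NHP2 (-0.24, adjusted p 0.0655) and NOP10 (0.05, adjusted p 0.653) did not pass. Of 11 assembly factors, 6 fell (54.5%) and 1 rose. NOLC1, a nucleolar chaperone of the particles, had -0.52 (adjusted p 9.18e-04), TAF9 -0.41 (adjusted p 0.00322) and SHQ1, a dyskerin chaperone, 0.22 (adjusted p 0.0307).

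Of 12 factors of nonsense-mediated decay, which degrades many SNHG transcripts, 2 fell (16.7%, a share near the 16.9% of all genes), with a median of 0.06. UPF2 had -0.21 (adjusted p 0.0147) and DHX34 -0.27 (adjusted p 0.0377), while the helicase UPF1 had 0.12 (adjusted p 0.222) and the kinase SMG1 0.01 (adjusted p 0.804). Of the 5 exon junction complex proteins, which mark transcripts for decay, RBM8A (-0.46) and CASC3 (-0.15) fell.

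Cytoplasmic ribosomal protein genes and other 5′ TOP mRNAs fell in large part after knock-down. Of 79 ribosomal protein genes 70 fell (88.6%, against 16.9% of all genes), with a median of -0.43. Of 17 mRNAs of translation factors and related 5′ TOP genes 11 fell (64.7%), with a median of -0.34, among them EEF2, the elongation factor for translocation (-1.12), and NPM1, the nucleolar chaperone nucleophosmin (-1.02). Of 22 other protein-coding snoRNA hosts 7 fell (31.8%) and 5 rose (22.7%, against 15.5% of all genes), with a median of -0.07; HSPA9 (0.45), EIF5 (0.34), CFDP1 (0.46), RNF149 (0.40) and ATP5F1B (0.17) were the ones that rose. EEF2, EEF1B2 and TPT1 stand in both of the last 2 lists. No difference between these lists was tested. In the RIP the medians were -0.30 for ribosomal protein genes, 0.38 for the 5′ TOP list and 0.39 for the other protein-coding hosts, of which 5 were enriched (22.7%) and 2 depleted (9.09%), against 11.1% and 13.6% of all genes.

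**Figure D4:**
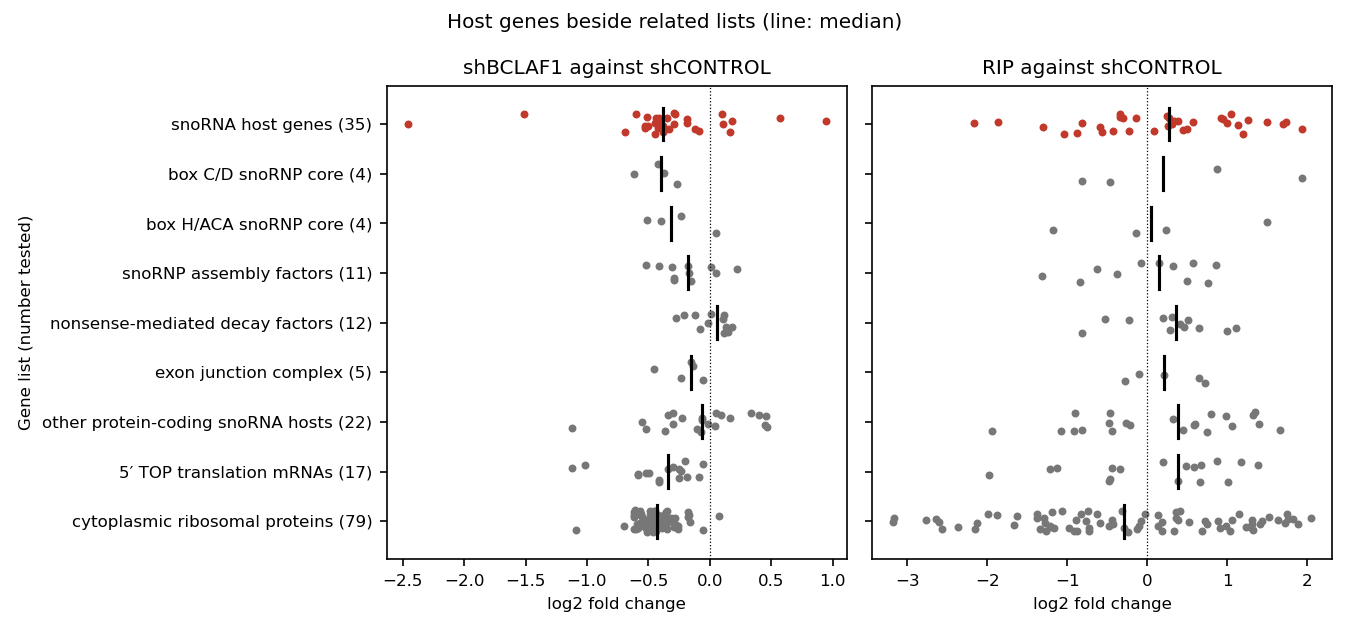
Points are the log2FCs of single genes tested and lines the list medians, with the number tested after knock-down in brackets. On the left the hosts (median -0.38), the 5′ TOP mRNAs (-0.34) and the ribosomal protein genes (-0.43) lie below 0, and the decay factors (0.06) near it; on the right every list spreads to both sides of 0.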

How the data were processed

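The authors deposited 1 table of estimated counts (expected counts) per gene, as whole numbers without normalization. The submitters' processing notes name hg38, STAR 2.7.11b and StringTie 2.2.3; annotation and counting options are not given in the sources used here. Another 1 entry named no gene. It held 2.18% to 3.75% of the counts in 8 libraries, its cell for RIP replicate 1 was empty, and it was left out. Columns were matched to samples by library name.

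Knock-down and RIP were each fitted on their own 6 libraries with edgeR 4.0.16 in R 4.3.3 over all genes passing the default filter on low counts. The fits used TMM, a prior count of 2, the quasi-likelihood test and Benjamini-Hochberg adjustment at 0.05, and RIP calls also needed a log2FC of 1 or more in size. Standard errors came from the coefficient and its F statistic. Depth bounds the precision: 3 counts equalled 0.0819 to 0.116 CPM, counting error only. The procedure was tested on simulated data with the same spread for all genes of a comparison. The planted changes were larger than most knock-down changes of the hosts, so calls of small changes were not checked. DESeq2 1.42.0 was an alternative; the others stand under the limits.

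The hosts and lists were chosen with earlier results of these data known. Values per library are given for the hosts called in either contrast with the 8 lowest and 8 highest log2 fold changes (log2FC) of each, for GAS5, SNHG1, ZFAS1 and DANCR and for the protein-coding hosts. Of each list up to 4 genes with small adjusted p were named, with others chosen after their values were seen. Positions and start sequences are from RefSeq (GRCh38.p14), matched by symbol: all 39 hosts had a position and 35 a start. Of 80 host and snoRNA pairs listed by hand, 79 lay inside the host interval, and 2 snoRNA symbols with several identifiers were not used.

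All 9 libraries carry 1 batch label. The level of 1 marker gene is not reported here.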

Additional observations from a re-analysis of the deposited data

How the results depend on the processing

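Hosts that fell after knock-down numbered 24, and 2 with a minimum log2FC of 1 and 9 in a single fit of all 9 libraries. For all genes these settings gave 389 and 1318 lower and 307 and 1129 higher. The single host that rose, SNHG9, was lost (0 hosts) with that minimum, in that fit and with the replicate block. With 1 library left out, 22 to 24 hosts fell and 0 to 1 rose, while 2171 to 2730 of all genes fell and 1975 to 2642 rose. In the RIP, 9 enriched hosts became 4 and 3 depleted became 1 when tested against a log2FC of 1, chosen after seeing the data (732 and 1142 of all genes). Without a minimum 7 hosts were lower (4107 genes higher and 4124 lower). With both RNA-seq groups averaged as the reference, 1 host was depleted, beside 2639 of all genes. With 1 library left out, 5 to 11 hosts were enriched and 2 to 5 depleted. The shares of all genes then ran from 10.34% to 11.63% enriched and from 12.12% to 16.98% depleted.

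Directions turned for hosts that had not been called, and the cause was not tested. With both RNA-seq groups averaged as the reference the RIP log2FC was 0.42 for SNHG14, -0.15 for SNHG9 and 0.012 for DANCR. With 1 library left out the RIP value ranged from -8.01 to 0.67 for SNHG11 (-0.15 and -0.0062 among them), from -0.82 to 0.18 for SNHG30, from -0.22 to 0.54 for SNHG9, from -0.020 to 0.43 for SNHG25 and from -0.31 to 0.081 for DANCR. The -8.01 for SNHG11, without RIP replicate 1, had an adjusted p of 0.00596. After knock-down the range was -0.0050 to 0.99 for SNHG30 and -0.79 to 0.75 for SNHG11 (-0.054 among them). With the replicate block they were -0.68 for SNHG11 after knock-down, and 0.68 for SNHG30 and -3.38 for SNHG11 in the RIP. SNHG11 and SNHG30 held 0 counts in some libraries.

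The main fits did not pair samples by replicate number. Deviations of same-numbered libraries correlated at 0.021 to 0.077 between shCONTROL and shBCLAF1 and at -0.025 to 0.015 between shCONTROL and RIP. Correlations this small, from so few libraries, cannot exclude a pairing. Each shCONTROL library correlated best with its own number in shBCLAF1, a hint from the data, but not in RIP. With the block, 22 hosts fell, 8 were enriched and 4 depleted, while 2538 of all genes fell, 1597 were enriched and 1879 depleted. Scaling by total counts moved the median of all genes to 0.07 after knock-down and -0.17 in the RIP. It gave 24 hosts lower and 7 enriched, beside 2486 of all genes lower and 1488 enriched.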
